A study of Mus musculus with 6 samples.

Results

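The proteasome genes of mouse liver were compared between PiZ and wild-type mice. A gene was taken as a member when its annotated symbol began with Psm, a letter from a to g and a number, and when it had a probe set (a set of short probes read as 1 value) annotated to that gene alone. Of 12393 genes with such a probe set, 48 matched. Of these, 46 encode proteasome subunits, activators, an inhibitor or assembly chaperones. The other 2, Psmc3ip and Psme3ip1, are named after partners of such proteins and are kept apart. Psme2 was read only by a probe set annotated to Psme2b as well, so it is no member and its values are given separately.

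PiZ mice carry a human transgene for Z alpha-1 antitrypsin, a mutant secreted protease inhibitor that misfolds in the endoplasmic reticulum of hepatocytes. The controls were wild-type mice. Both groups were 6 weeks old and on a C57BL/6 background, with 3 livers per group and 1 one-colour Affymetrix array per liver. The labels call the arrays biological replicates and give neither the sex of the animals nor the copy number of the transgene. Values are log2 intensities, and each gene is read by its brightest probe set. Differences are PiZ minus wild-type from limma, a linear model that pools information on spread across genes. They carry a standard error (SE) and a Benjamini-Hochberg adjusted p over all 12393 genes, and n = 3 per group throughout. A gene is said to have risen or fallen where that adjusted p was below 0.05.

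The proteasome is the barrel-shaped protease that degrades proteins marked with ubiquitin, among them misfolded proteins pulled out of the endoplasmic reticulum. Its core stacks outer rings of alpha subunits on inner rings of beta subunits, of which Psmb5, Psmb6 and Psmb7 hold the active sites. A cap binds ubiquitin chains, removes them and unfolds the substrate with a ring of ATPases. Interferon-inducible subunits, Psmb8, Psmb9 and Psmb10, can replace the standard active subunits to form the immunoproteasome, and the activator PA28 (Psme1 and Psme2) can replace the cap. These forms are known for making peptides for class I antigen presentation. In cells with impaired proteasomes, the transcription factor NFE2L1 is known to raise core and cap genes through antioxidant response elements.

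The promoters of Psmb5 and Psmb6 and of their interferon-inducible counterparts Psmb8 and Psmb9 are shown because these pairs gave opposite readings in PiZ liver. Each is the 250 bases before the RefSeq start site in build GRCm38.p6, 5′ to 3′ on the gene's strand. Psmb5 lies on the minus strand at chr14:54617996-54618245, Psmb6 on the plus strand at chr11:70525107-70525356, Psmb8 on the plus strand at chr17:34197945-34198194 and Psmb9 on the minus strand at chr17:34187331-34187580. Capitals mark matches, on either strand, to any of the motifs TGACNNNGC (the core of the antioxidant response element), GAAA and GAAA spaced by any 2 bases (the core of the interferon-stimulated response element), TTCNNNGAA (the interferon gamma activated site) and CCAAT.
Psmb5: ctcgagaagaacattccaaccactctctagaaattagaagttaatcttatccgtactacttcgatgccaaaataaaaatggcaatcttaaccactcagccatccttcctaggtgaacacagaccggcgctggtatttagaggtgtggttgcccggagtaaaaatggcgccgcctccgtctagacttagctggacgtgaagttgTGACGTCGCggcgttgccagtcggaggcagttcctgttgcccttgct
Psmb6: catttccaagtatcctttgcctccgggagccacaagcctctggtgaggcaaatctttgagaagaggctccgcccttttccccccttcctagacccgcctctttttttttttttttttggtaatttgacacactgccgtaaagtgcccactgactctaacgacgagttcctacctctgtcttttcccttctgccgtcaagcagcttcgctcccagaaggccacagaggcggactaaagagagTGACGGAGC
Psmb8: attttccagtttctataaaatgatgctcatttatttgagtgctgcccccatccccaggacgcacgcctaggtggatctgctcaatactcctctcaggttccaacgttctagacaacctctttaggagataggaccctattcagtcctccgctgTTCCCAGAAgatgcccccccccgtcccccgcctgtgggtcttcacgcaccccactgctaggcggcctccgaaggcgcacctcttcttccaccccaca
Psmb9: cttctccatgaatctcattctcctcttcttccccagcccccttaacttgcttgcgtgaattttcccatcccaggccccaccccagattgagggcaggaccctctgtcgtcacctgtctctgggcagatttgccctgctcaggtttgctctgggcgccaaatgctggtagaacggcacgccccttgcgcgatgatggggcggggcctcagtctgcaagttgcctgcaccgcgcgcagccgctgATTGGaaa

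Psmb5 and Psmb6 each held 1 match to the antioxidant response element core, at positions -47 to -39 and -9 to -1 from the start site. Psmb8 held an interferon gamma activated site match at -97 to -89, and Psmb9 held a CCAAT match at -8 to -4. RefSeq windows were found for 40 of the 48 members, in 43 windows. The antioxidant response element core occurred in 5 member windows (11.6%), against 10.2% of all 32851 windows of the same length. The interferon-stimulated element core occurred in 3 member windows (6.98%), against 2.98% of all windows, and the interferon gamma activated site in 2 (4.65%), against 7.02%. CCAAT occurred in 15 (34.9%), against 33.8%. Of the 14 members with a window that rose, 1 held the antioxidant response element core and 2 the interferon-stimulated element core. The interferon gamma activated site was held by 0 of these 14 and CCAAT by 6. Of the 3 members that fell, 0, 0, 1 and 1 held these motifs, in the same order. These matches are descriptions of letters in a short window, and the windows of Psmb9 and of the peptide transporter gene Tap1 lie head to head and share 225 of the 250 bases.

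In PiZ liver, 15 of 32 core and cap genes were higher, and all 3 catalytic immunoproteasome genes were lower. Without Psma8, a testis form with dim readings, 14 of 31 core and cap genes were higher. Of the 48 members, 17 rose and 3 fell. Across all genes 23.6% were called, with 11.3% higher and 12.3% lower. At an adjusted p below 0.01, 8 members rose and 3 fell, against 7.38% of all genes called (3.58% higher and 3.79% lower). The 17 comprised 15 of the 32 core and cap subunits (0 fell), the activator Psme3 and the inhibitor Psmf1. The 3 that fell were Psmb8, Psmb9 and Psmb10, the whole inducible set of active subunits. The median difference was 0.48 over the core and cap subunits and -0.70 over the 4 measured immunoproteasome and PA28 genes, against 0.08 over all genes. The number of rises shrank to 10, 10 and 8 without wild-type replicate 1, 2 or 3, while the 3 falls were called each time. Calls over all genes shrank as well, to 8.92% (4.24% higher and 4.68% lower), 10.2% (4.84% and 5.34%) and 8.62% (4.18% and 4.44%). In bulk liver, fewer cells of a type and less RNA per cell cannot be told apart.

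**Figure D1:**
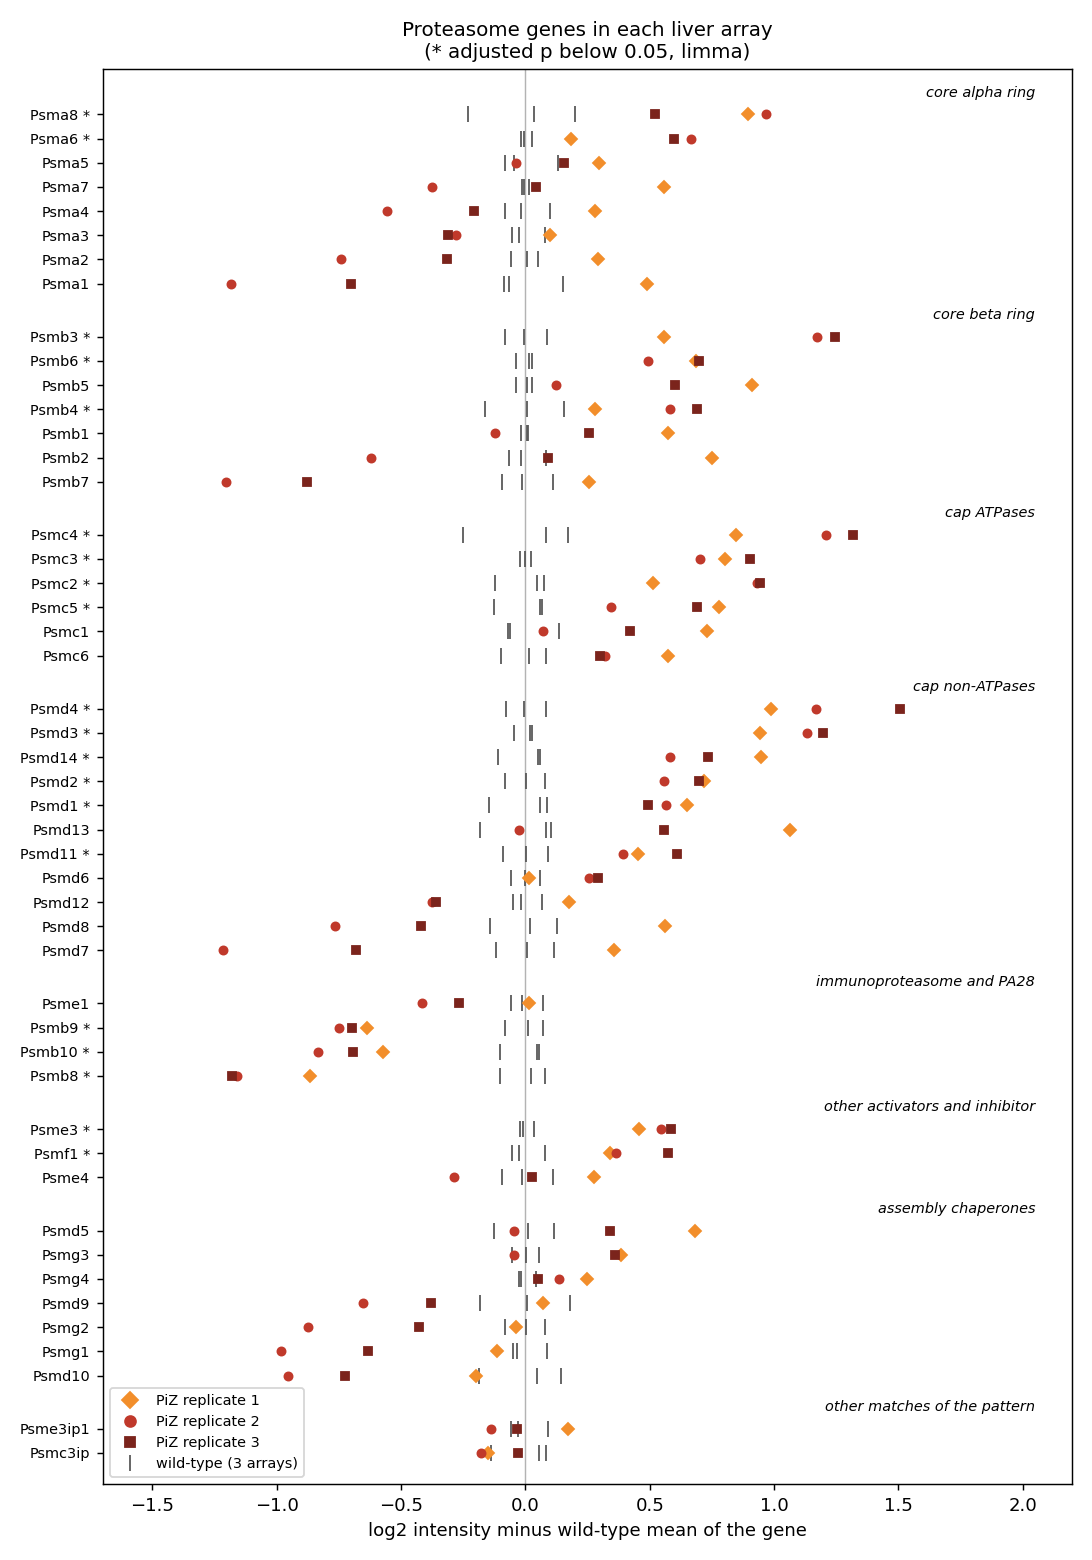
Every matched gene in every array, as log2 intensity minus the wild-type mean of that gene, grouped by role. Coloured points are the 3 PiZ arrays, grey ticks the 3 wild-type arrays, and stars mark an adjusted p below 0.05. Psmb8, Psmb9 and Psmb10 lie left of all wild-type ticks in all 3 PiZ arrays, and Psmd4, Psmd3 and Psmc4 lie right of them.

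The PiZ arrays differed among themselves. The log2 difference between the 3′ and 5′ probes of the control transcript Gapdh, which grows as RNA is shortened, was 1.99, 4.39 and 4.01 in PiZ liver (replicates 1, 2 and 3), against 1.49 to 2.06 in wild-type liver. In PiZ replicate 1, 31 of the 32 core and cap subunits read above all 3 wild-type arrays and 0 read below them. Across all genes PiZ replicate 1 read above all wild-type arrays for 38.0% and below them for 35.6%. In both PiZ replicates 2 and 3, 18 of the 32 read above all wild-type arrays and 8 read below them. Over all genes these shares were 41.0% above and 28.2% below. PiZ replicate 1 was the highest of the 3 PiZ arrays for 62.5% of core and cap subunits, against 33.7% of all genes. The PiZ spread exceeded the wild-type spread for 31 of the 32, against 79.1% of all genes.

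With PiZ replicate 1 alone against wild-type, and assuming that it varies like wild-type, 23 members rose and 3 fell (across all genes 18.6% were called, 8.83% higher and 9.8% lower). Of the 32 core and cap subunits 21 rose and 0 fell. Without PiZ replicate 1, 19 members rose and 16 fell (49.8% of all genes were called, 27.4% higher and 22.4% lower), and 17 core and cap subunits rose while 8 fell. Psmb8, Psmb9 and Psmb10 fell in both settings. The part of RNA quality in the differences between PiZ arrays was not tested beyond these values and a fit with a covariate. The covariate was the mean of the 3′ minus 5′ differences of Gapdh and beta-actin. That of beta-actin was 3.02, 4.89 and 4.66 in PiZ replicates 1, 2 and 3, against 2.90 to 3.34 in wild-type liver. In the covariate fit 22 members rose and 3 fell. That fit called 14.6% of all genes (7.0% higher and 7.64% lower), and its 22 rises included 13 of the 17. The covariate sets PiZ replicates 2 and 3 apart from all other arrays, so the fit rests largely on PiZ replicate 1. It gave 0.94 for Psmd3, 0.54 for Psmb3 and -0.84 for Psmb8, against 0.94, 0.56 and -0.87 in PiZ replicate 1 alone. It therefore cannot tell RNA quality from other differences between the PiZ arrays.

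**Figure D2:**
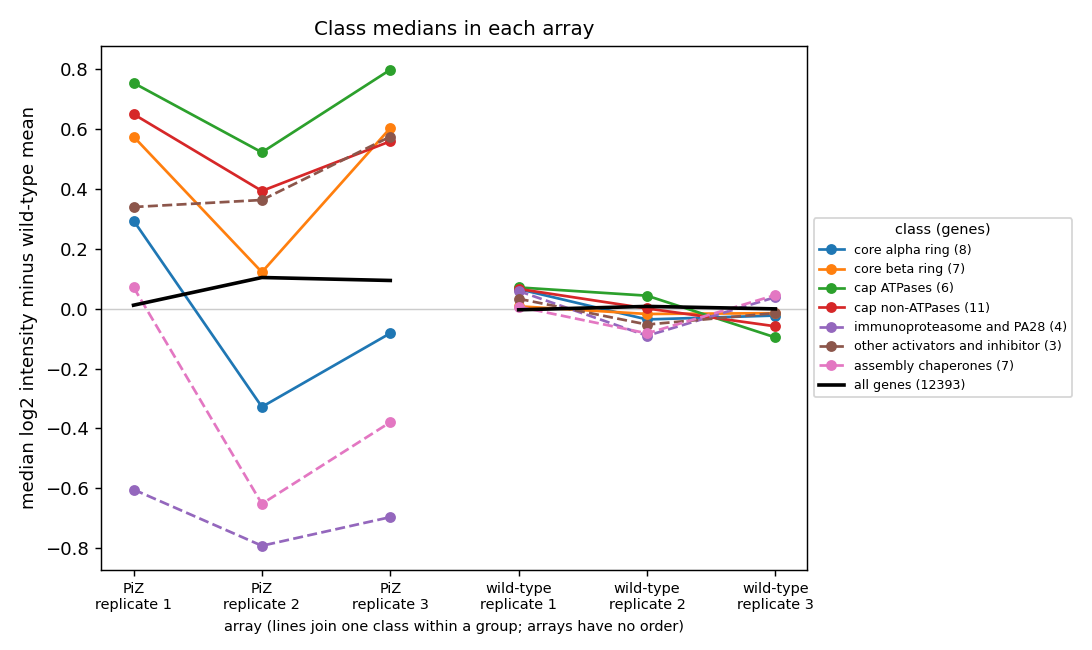
Median log2 intensity minus the wild-type mean over the genes of each class, in each array. Lines join arrays of a group for legibility. Cap ATPases lay at 0.75, 0.52 and 0.80 in PiZ replicates 1, 2 and 3, immunoproteasome and PA28 genes at -0.60, -0.79 and -0.70, and the median of all genes (black) close to 0 in all arrays.

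The cap ATPases, which unfold substrates and thread them into the core, all leaned one way in their brightest probe sets. All 6 had a positive difference, 4 rose, and the median difference was 0.70. Psmc4 read 11.93, 12.29 and 12.39 in PiZ replicates 1, 2 and 3, against 11.16, 11.25 and 10.83 in wild-type replicates 1, 2 and 3. All PiZ values lay above all wild-type values, a difference of 1.12 (SE 0.17, limma adjusted p = 0.00492), or 2.18-fold. Psmc3 read 11.52, 11.42 and 11.62 in PiZ liver, against 10.70, 10.74 and 10.72 in wild-type liver. Its PiZ arrays were nearly level with each other, and it rose by 0.80 (SE 0.11, adjusted p = 0.00305). Psmc2 read 11.63, 12.05 and 12.06 in PiZ, against 11.17, 11.19 and 10.998 in wild-type liver. Its mean was 11.91 ± 0.24 in PiZ and 11.12 ± 0.11 in wild-type liver (SD, n = 3 each), a rise of 0.80 (SE 0.15). Psmc5 read 10.40, 9.97 and 10.32 in PiZ, against 9.68, 9.69 and 9.50 in wild-type liver. It rose by 0.60 (SE 0.14, adjusted p = 0.0227), and this call was lost in 5 of 17 alternative settings. Psmc6 read 10.78, 10.52 and 10.50 in PiZ and 10.29, 10.10 and 10.22 in wild-type liver. Its groups did not overlap, yet it missed the threshold at a difference of 0.40 (SE 0.12, adjusted p = 0.0508). The dimmer Psmc6 probe sets differed by 0.47 (limma adjusted p = 0.0383 over all single-gene probe sets) and -0.37. Psmc1 did not pass either, at 0.41 (SE 0.17).

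Of the 11 measured non-ATPase cap subunits 6 rose and 0 fell, with a median difference of 0.53. Psmd4, a receptor for ubiquitin chains, differed most of all members. It read 11.65, 11.84 and 12.17 in PiZ liver, against 10.66, 10.75 and 10.59 in wild-type liver. The groups were far apart relative to their spread, with a rise of 1.22 (SE 0.15, adjusted p = 0.00241), or 2.33-fold. Psmd3, a scaffold subunit of the cap's lid, read 10.46, 10.65 and 10.71 in PiZ liver, against 9.54, 9.54 and 9.47 in wild-type liver. That is a rise of 1.09 (SE 0.11, adjusted p = 0.00127), or 2.13-fold. Psmd14, the enzyme that cuts ubiquitin chains off the substrate, read 11.10, 10.73 and 10.88 in PiZ and 10.21, 10.20 and 10.04 in wild-type liver. It rose by 0.75 (SE 0.13, adjusted p = 0.0077), with PiZ replicate 1 the highest array. Psmd2, a large scaffold subunit of the cap's base, read 11.29, 11.12 and 11.26 in PiZ, against 10.57, 10.65 and 10.48 in wild-type liver. It averaged 11.22 ± 0.088 in PiZ and 10.57 ± 0.082 in wild-type liver (SD, n = 3 each) and rose by 0.66 (SE 0.11). The remaining risers of this class, Psmd1 and Psmd11, were named outside the rule for named genes, after their values were seen, and differed by 0.57 and 0.49. Their calls were lost in 2 and 7 of 17 alternative settings. The 6 probe sets of Psmd11 ran from -0.30 to 0.73, and 3 of them were called higher.

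In the brightest probe sets of 3 lid subunits, Psmd7, Psmd8 and Psmd12, the PiZ arrays lay on both sides of wild-type. Psmd7, a structural partner of Psmd14, read 8.43, 6.85 and 7.39 in PiZ replicates 1, 2 and 3, against 8.18, 7.95 and 8.08 in wild-type liver. PiZ replicate 1 lay above all wild-type arrays and PiZ replicates 2 and 3 below them. The Psmd7 difference of -0.51 (SE 0.35, adjusted p = 0.303) thus sums opposite readings. Its dimmer probe sets, which differed by 0.52 and 0.31, did not show this split. From the wild-type mean they read -0.016 and 0.30 in PiZ replicate 1, and 0.79 and 0.32 in the mean of PiZ replicates 2 and 3. The 5 non-ATPase cap subunits that did not pass ran from -0.51 to 0.53.

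Among the 7 beta subunits of the standard core, 3 rose and 0 fell, with a median difference of 0.52. Psmb3, a structural subunit, read 12.52, 13.13 and 13.21 in PiZ liver, against 11.95, 12.05 and 11.88 in wild-type liver. The PiZ arrays were all higher, PiZ replicates 2 and 3 the most, and the rise was 0.99 (SE 0.19, adjusted p = 0.0108). Its other probe set, however, differed by -0.02. Psmb6, the subunit with caspase-like activity, read 11.89, 11.70 and 11.91 in PiZ and 11.17, 11.24 and 11.22 in wild-type liver. It rose by 0.63 (SE 0.11, adjusted p = 0.00791), or 1.54-fold, and kept its call in all 17 alternative settings. Psmb5, the subunit with chymotrypsin-like activity and the target of proteasome inhibitor drugs, read 11.76, 10.98 and 11.46 in PiZ and 10.86, 10.82 and 10.88 in wild-type liver. All PiZ values were higher, but PiZ replicate 2 lay close to wild-type, and the difference of 0.55 (SE 0.19) missed the threshold (adjusted p = 0.0749). It passed in 7 of 17 alternative settings. Psmb4, another structural subunit, was named outside the rule after its values were seen. It rose by 0.52 (SE 0.15), a call lost in 11 of 17 alternative settings, and its other probe set differed by 0.18. Psmb7, with trypsin-like activity, read 9.07, 7.62 and 7.94 in PiZ and 8.93, 8.72 and 8.80 in wild-type liver. Again PiZ replicate 1 lay above and PiZ replicates 2 and 3 below wild-type, with a difference of -0.61 (SE 0.34, adjusted p = 0.212).

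The alpha subunits, which form the gate of the core, showed the smallest group difference among core and cap classes, with a median of -0.04. Of 8 measured, 2 rose and 0 fell. All 8 read above all wild-type arrays in PiZ replicate 1, and 4 read below them in both PiZ replicates 2 and 3 (all genes 38.0% for the first and 28.2% for the second count). Psma1 had the widest spread, at 10.98, 9.31 and 9.80 in PiZ and 10.65, 10.41 and 10.43 in wild-type liver. Its difference was -0.47 (SE 0.38, adjusted p = 0.378), and 0.49 in PiZ replicate 1 alone. Psma8, a testis form of the alpha ring, rose by 0.79 (SE 0.17, adjusted p = 0.0145) to 5.27, 5.34 and 4.90 in PiZ, against 4.41, 4.14 and 4.57 in wild-type liver. The readings are dim, since the lower quartile of all probe sets was 4.35, 4.46 and 4.45 in PiZ replicates 1, 2 and 3, against 4.28 to 4.32 in wild-type. The Psma8 call was lost in 3 of the 16 settings that tested it. Psma6, named outside the rule after its values were seen, rose by 0.48 in its brightest probe set (adjusted p = 0.0487), a call lost in 10 of 17 alternative settings. Its next brightest probe set differed by -0.93.

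The inducible active subunits read below all wild-type arrays in every PiZ array. Psmb8, the inducible form of Psmb5, read 8.05, 7.76 and 7.74 in PiZ replicates 1, 2 and 3, against 8.999, 8.82 and 8.94 in wild-type replicates 1, 2 and 3. It fell by 1.07 on the log2 scale (SE 0.13, limma adjusted p = 0.00224), and wild-type liver was 2.10-fold higher. Psmb9, the inducible form of Psmb6, read 7.83, 7.72 and 7.77 in PiZ and 8.54, 8.39 and 8.48 in wild-type liver. The PiZ arrays had an SD of 0.056 and all lay below wild-type, and Psmb9 fell by 0.69 (SE 0.10, adjusted p = 0.0049). Psmb10, the inducible form of Psmb7, read 8.51, 8.25 and 8.39 in PiZ and 9.13, 8.99 and 9.14 in wild-type liver. It fell by 0.70 (SE 0.12, adjusted p = 0.0071). Each of the 3 has a single probe set, and all 3 kept their call in all 17 alternative settings. The highest adjusted p over those settings was 0.0174 for Psmb8, 0.0326 for Psmb9 and 0.0417 for Psmb10.

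**Figure D3:**
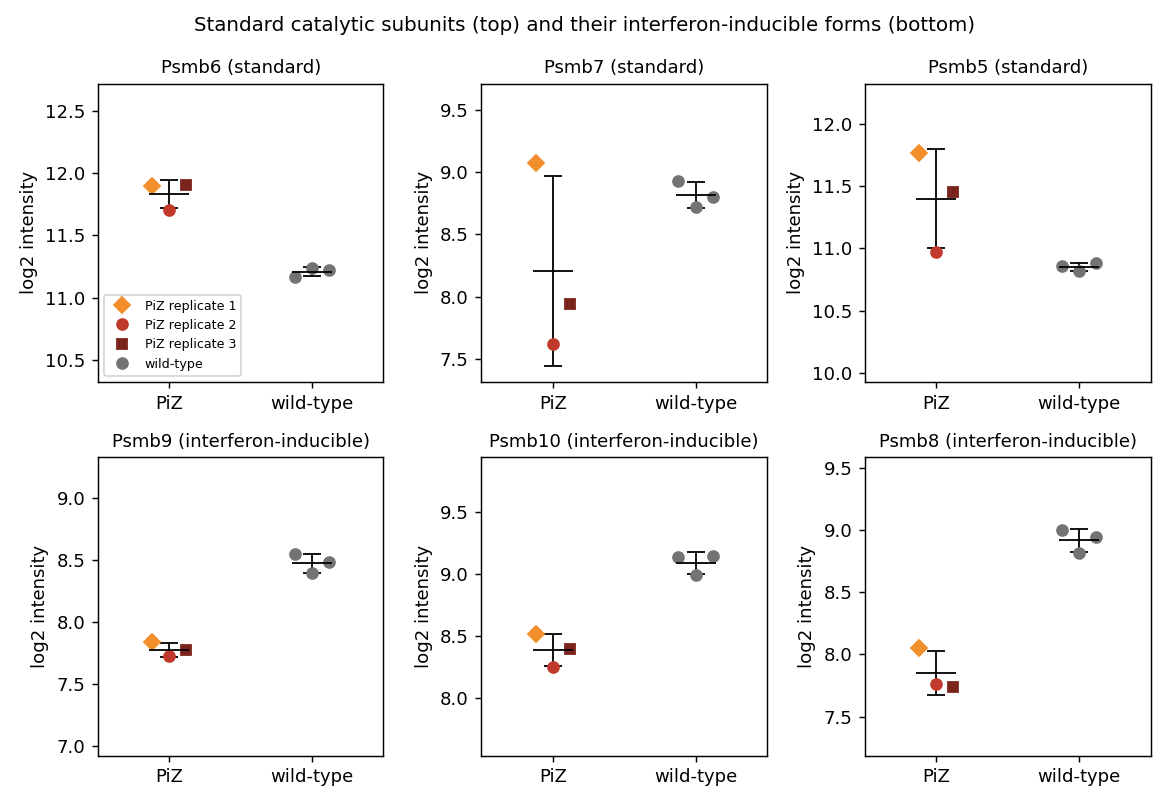
Log2 intensity of the standard active subunits (top) and of the inducible forms that replace them (bottom), with 3 PiZ arrays left and 3 wild-type arrays right. Bars are the mean and SD. Each panel spans the same range of log2 units. The inducible forms read lower in all PiZ arrays, Psmb6 and Psmb5 higher, and Psmb7 split the PiZ arrays.

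Within each array, the change of an inducible form can be set against that of its standard counterpart, each taken from its own wild-type mean. For Psmb8 against Psmb5 this was -1.78, -1.28 and -1.78 in PiZ replicates 1, 2 and 3, against -0.07 to 0.07 in wild-type liver. For Psmb9 against Psmb6 it was -1.32, -1.24 and -1.40 in PiZ, against -0.11 to 0.11 in wild-type liver. Both pairs thus moved apart in all 3 PiZ livers. For Psmb10 against Psmb7 it was -0.83, 0.37 and 0.18 in PiZ, against -0.06 to 0.07 in wild-type liver. In PiZ replicates 2 and 3 both genes of this pair read lower than wild-type, Psmb7 by more. These are descriptions of genes already given above, with no test of their own.

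The activators that can stand in for the cap gave mixed readings. Psme1, the alpha subunit of PA28, read 10.48, 10.05 and 10.20 in PiZ and 10.40, 10.45 and 10.54 in wild-type liver. The groups overlapped and the difference of -0.22 (SE 0.14, adjusted p = 0.252) did not pass. The probe set shared by Psme2 and Psme2b read 10.66, 9.93 and 10.33 in PiZ, against 10.77, 10.66 and 10.77 in wild-type liver, a difference of -0.42 that was not tested because it names several genes. Psme3, the nuclear activator PA28 gamma, read 8.29, 8.37 and 8.41 in PiZ and 7.86, 7.82 and 7.81 in wild-type liver. It rose by 0.53 (SE 0.10, adjusted p = 0.0107), although its 2 dimmer probe sets read -0.49 and 0.23 and the call was lost in 5 of 17 alternative settings. Psme4, another nuclear activator, differed by 0.0049 (SE 0.16, adjusted p = 0.983), with overlapping groups. The inhibitor Psmf1, named outside the rule, rose by 0.43 (SE 0.11), a call lost in 10 of 17 alternative settings, and its 4 probe sets ran from -0.66 to 0.69.

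None of the 7 assembly chaperones passed, and their median difference was -0.32. Psmg1, which pairs with Psmg2 to build the alpha ring, read 9.42, 8.55 and 8.90 in PiZ and 9.62, 9.50 and 9.48 in wild-type liver. The groups did not overlap, yet the difference of -0.58 (SE 0.21, adjusted p = 0.0798) missed the threshold. Psmg1 was named outside the rule after its values were seen. Psmd10 (gankyrin), a chaperone of the cap ATPases, read 6.59, 5.83 and 6.06 in PiZ and 6.93, 6.60 and 6.83 in wild-type liver. It was the lowest of the class, at -0.63 (SE 0.20, adjusted p = 0.0583). Psmd5, another cap chaperone, was the highest, at 0.33 (SE 0.19), with overlapping groups. In PiZ replicate 1 the class median was 0.07 above the wild-type mean, and it was -0.65 and -0.38 in PiZ replicates 2 and 3. Psmc3ip and Psme3ip1 differed by -0.12 (SE 0.11) and -0.0018 (SE 0.12), and neither passed.

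Over all 48 members the groups did not overlap with PiZ above for 20 and with PiZ below for 5 genes. Across all genes these shares were 24.9% and 19.9%. The 20 included 17 of the 32 core and cap subunits, and the 5 were Psmb8, Psmb9, Psmb10, Psmd10 and Psmg1.

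Probe sets of one gene did not always read alike. The 48 members had 85 probe sets, and 27 members had only 1. Of the 21 members with several, 12 had probe sets with differences of both signs. In PiZ replicate 1 the signs were mixed for 8 of the 21, and in the mean of PiZ replicates 2 and 3 for 12. Of the 85 probe sets 68 read above their wild-type mean in PiZ replicate 1, and 47 in the mean of PiZ replicates 2 and 3. Tested over all 20380 single-gene probe sets, 25 of the 85 were higher and 3 lower, against 9.16% and 10.7% of all those probe sets. Both probe sets of Psmc4 rose, by 1.12 and 1.05, and the 3 probe sets of Psmd4 read 1.22, 0.27 and 0.72. Psmc2, by contrast, read 0.80 and -0.03.

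**Figure D4:**
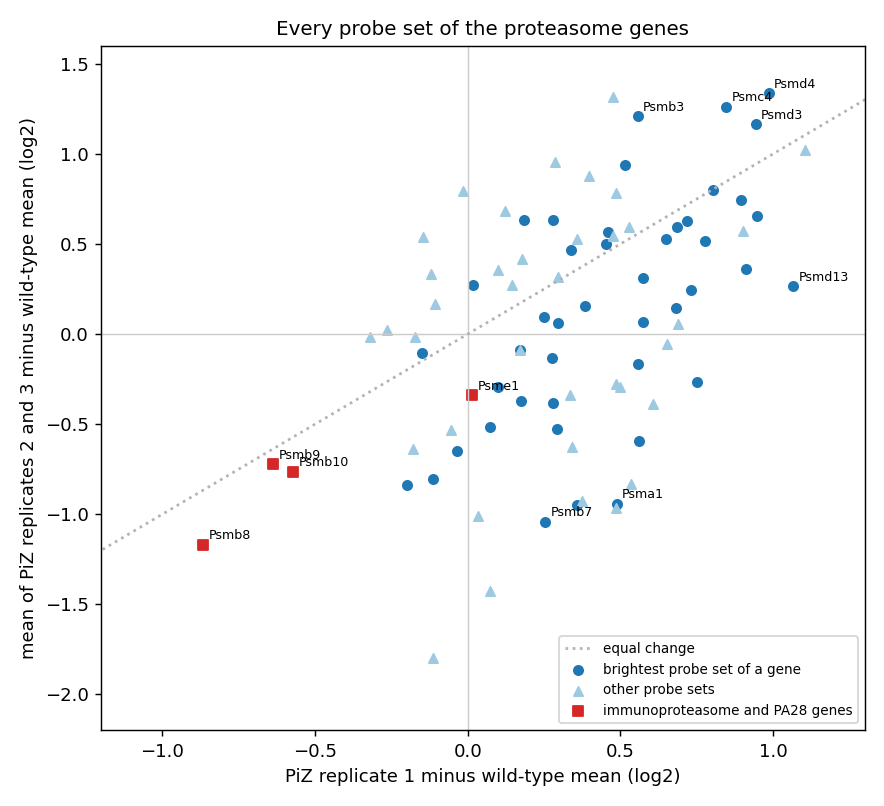
Each point is 1 of the 85 probe sets of the matched genes. The horizontal axis gives PiZ replicate 1 minus the wild-type mean and the vertical axis the mean of PiZ replicates 2 and 3 minus it, both in log2 units, and the dotted line marks equal change. Red squares are Psmb8, Psmb9, Psmb10 and Psme1. Psmb8, Psmb9 and Psmb10 lie low on both axes, and the brightest probe sets of Psmd4, Psmd3 and Psmc4 high on both, while the brightest probe sets of Psmb7 and Psma1 are higher in PiZ replicate 1 and lower in PiZ replicates 2 and 3.

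Partners that work on the proteasome were mixed as a list. Of 9 measured, 4 rose and 1 fell (all genes 11.3% and 12.3%), and the median difference was -0.02. The zinc finger genes Zfand5 and Zfand2a, whose products act at the proteasome, rose by 1.23 (SE 0.11, adjusted p = 0.000765) and 1.16 (SE 0.12). Zfand5 read 11.64, 11.81 and 11.62 in PiZ and 10.48, 10.39 and 10.50 in wild-type liver, with no overlap. Txnl1, a thioredoxin-like protein bound to the cap, rose by 0.67 (SE 0.14). Of the deubiquitinases in this list, Usp14 rose by 0.41 (SE 0.12, limma adjusted p = 0.0464). Uchl5 fell by 0.94 (SE 0.27, limma adjusted p = 0.0404). Uchl5 read 8.31, 7.19 and 7.47 in PiZ and 8.66, 8.50 and 8.61 in wild-type liver, with PiZ replicate 1 closest to wild-type. Pomp, the maturation factor of the core, differed by -0.02 (SE 0.17, adjusted p = 0.952).

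Of 13 measured regulators linked to proteasome genes, 4 rose and 0 fell (all genes 11.3% and 12.3%), and the median difference was -0.04. Nfe2l1 read 9.31, 9.55 and 9.75 in PiZ, against 8.85, 8.85 and 8.90 in wild-type liver. All PiZ arrays were higher, and Nfe2l1 rose by 0.67 (SE 0.13, limma adjusted p = 0.0129). Nfe2l2 (NRF2) differed by -0.48 (SE 0.18, adjusted p = 0.0835). Mafk and Maff, small Maf partners with which both factors bind DNA, rose by 1.19 (SE 0.12) and 1.41 (SE 0.29), and Keap1, the inhibitor of NRF2, rose by 0.67 (SE 0.12). Ngly1, the enzyme that strips sugars from NFE2L1 and so activates it, differed by -0.37 (SE 0.15) and did not pass.

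Among 9 measured genes that supply or carry ubiquitinated proteins, 2 rose and 0 fell (all genes 11.3% and 12.3%), with a median of 0.16. Vcp (p97), the ATPase that extracts proteins from the endoplasmic reticulum membrane, read 12.52, 12.30 and 12.51 in PiZ and 11.88, 11.87 and 11.74 in wild-type liver. It rose by 0.61 (SE 0.11, adjusted p = 0.00994). Its cofactor Nploc4 rose by 0.73 (SE 0.12).

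Class I antigen presentation genes, which use the immunoproteasome's products, gave 1 rise and 2 falls among 11 measured, with a median of -0.37. The shares over all genes were 11.3% higher and 12.3% lower. Erap1, which trims peptides, read 7.69, 6.87 and 6.90 in PiZ and 8.31, 8.13 and 8.32 in wild-type liver, and fell by 1.10 (SE 0.22, adjusted p = 0.0128). B2m, the light chain of class I molecules, fell by 0.42 (SE 0.13, adjusted p = 0.0479). The rise was that of Calr (0.81, SE 0.13), a chaperone of class I folding that also belongs to the general folding machinery. Tap1, whose promoter window overlaps that of Psmb9, read 7.56, 7.78 and 7.63 in PiZ and 7.80, 7.58 and 7.74 in wild-type liver. The groups overlapped, and Tap1 differed by -0.05 (SE 0.12, adjusted p = 0.775) beside the fall of 0.69 in Psmb9. The difference between the responses of Tap1 and Psmb9 was not tested.

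Among 19 measured interferon response genes 3 rose and 3 fell, and the median difference was -0.04. Over all genes 11.3% were higher and 12.3% lower. Ifit1 fell by 1.00 (SE 0.12, adjusted p = 0.00241), Irf9, a subunit of the interferon-activated factor, by 0.45 (SE 0.10), and Ifngr2, a chain of the interferon gamma receptor, by 0.52 (SE 0.11). Irf8, a factor of myeloid cells, rose by 0.93 (SE 0.17), Rsad2 by 0.58 (SE 0.11) and Mx2 by 0.46 (SE 0.11). Irf1, a direct activator of Psmb9 in other settings, differed by -0.32 (SE 0.15, adjusted p = 0.157).

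**Figure D5:**
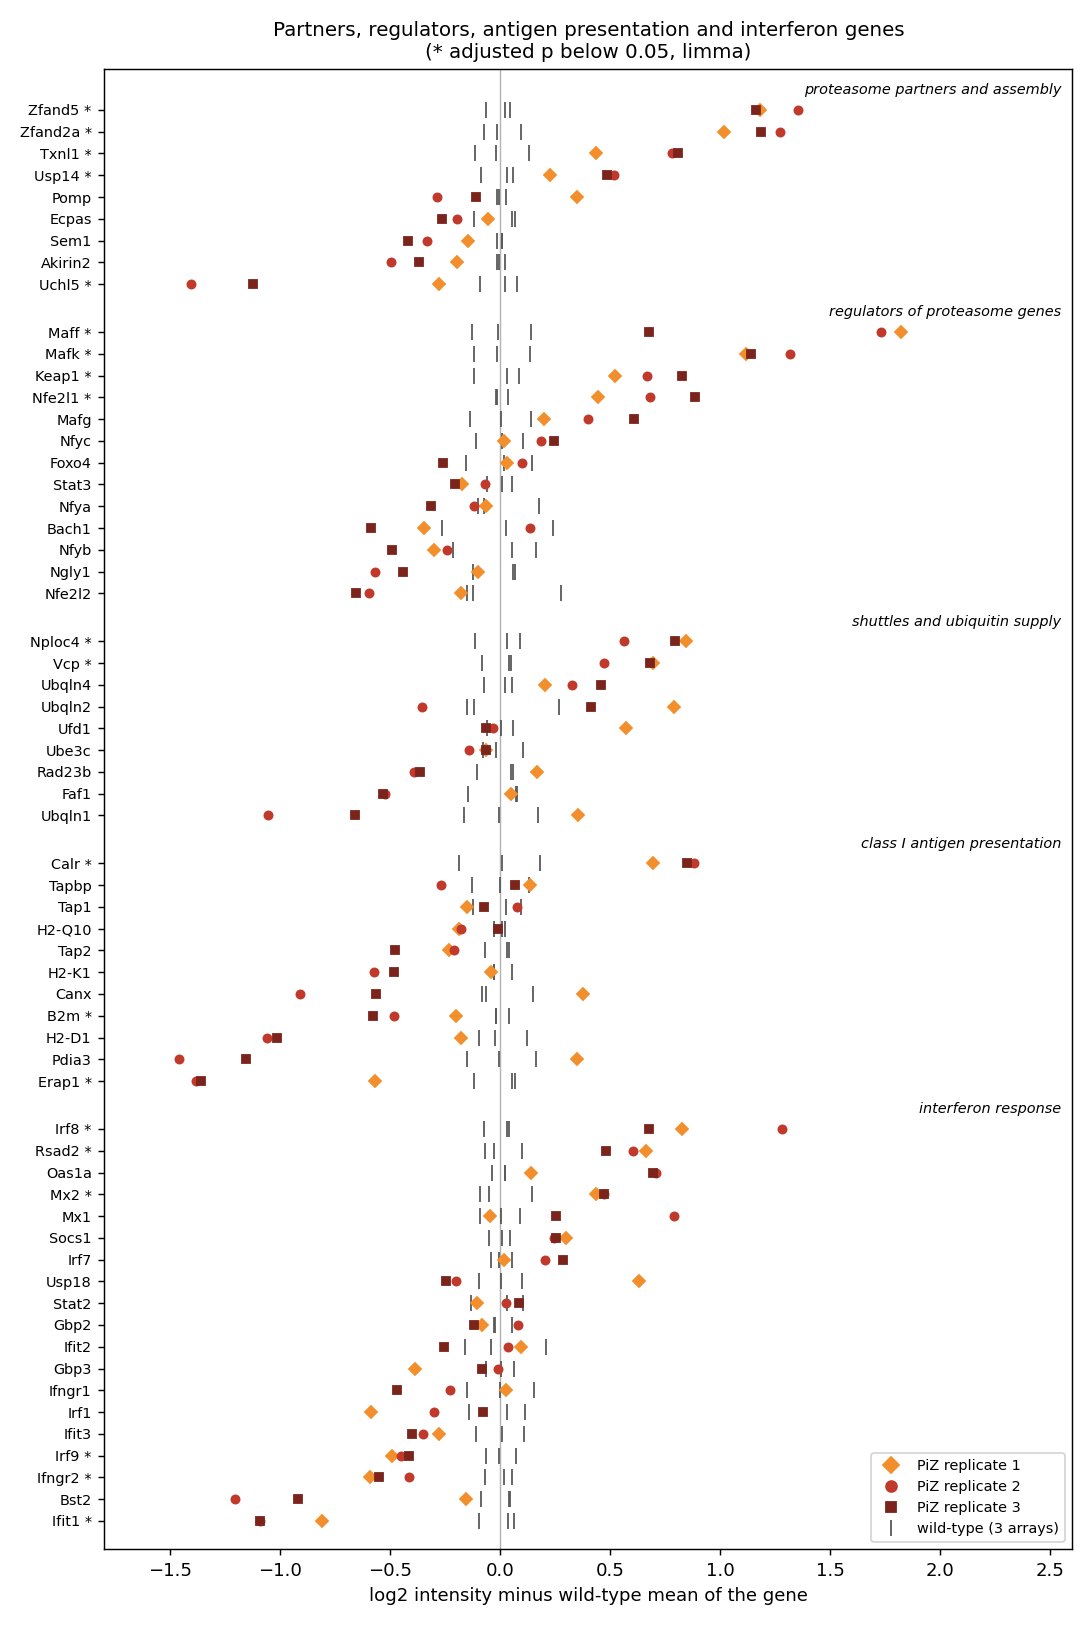
Partners, regulators, ubiquitin shuttles, antigen presentation and interferon genes in every array, as log2 intensity minus the wild-type mean of the gene. Coloured points are the 3 PiZ arrays, grey ticks the 3 wild-type arrays, and stars mark an adjusted p below 0.05. Zfand5, Mafk and Vcp lie above wild-type in all PiZ arrays, Ifit1 and Erap1 below, and the Tap1 points of the 2 groups overlap.

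Leukocytes express immunoproteasome genes, so their markers are given beside these falls. Of 10 measured T and NK cell markers and 4 B and plasma cell markers 0 rose and 0 fell. These markers are dim. Their PiZ means ran from 3.98 (Cd3g) to 5.96 (Cd4) for T and NK cells and from 4.55 (Jchain) to 5.60 (Cd79b) for B and plasma cells. The lower quartile of all probe sets was 4.35 to 4.46 in PiZ liver. The log2 of the summed T and NK marker intensities was 8.45 to 8.60 in PiZ and 8.34 to 8.42 in wild-type liver, and for B and plasma cells 6.78 to 7.16 in PiZ and 6.85 to 7.13 in wild-type liver. General leukocyte markers summed to 11.27 to 11.48 in PiZ, against 10.82 to 11.03 in wild-type liver, and 2 of 6 rose (Laptm5 and Coro1a). The median difference of these 6 was 0.34, and 2 of the differences were negative. Kupffer cell and macrophage markers summed to 13.25 to 13.48 in PiZ, against 13.04 to 13.11 in wild-type liver, and 3 of 10 rose. Such a sum is weighted towards bright markers: the median difference of this list was 0.07, and 4 of the 10 differences were negative. Neutrophil markers summed to 9.03 to 9.49 in PiZ, against 7.21 to 7.69 in wild-type liver. Here 2 of 6 (S100a8 and S100a9) rose, the granule genes Mpo and Elane did not pass, and the median difference was 0.21. Dendritic cell markers summed to 7.43 to 7.83 in PiZ, against 7.45 to 7.48 in wild-type liver, and 0 of 5 passed. The dendritic cell markers had PiZ means from 3.61 (Xcr1) to 6.22 (Batf3). None of these lists was lower in PiZ by a called gene, but a fall in the dim lymphocyte and dendritic cell markers could hardly show. Hepatocyte markers summed to 16.97 to 17.10 in PiZ, against 17.18 to 17.20 in wild-type liver, and 0 of 6 passed. The part of cell composition in the proteasome results was not tested.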

How the data were processed

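Liver RNA of 3 PiZ and 3 wild-type mice was read on one-colour arrays. The authors deposited 1 log2 intensity for each probe set and array. Per the submitters' processing notes, affy and RMA were used. Such normalization equalises the arrays and can hide a shift common to all genes. Tool versions: not given in the sources used here. Values run between 2.3 and 14.98, as log2 data do. No sample column was left unmatched.

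Of 22690 probe sets, 64 were controls and 20380 named 1 gene in the platform annotation. Names were checked by Entrez identifier for 20351. Each of 12393 genes was represented by its brightest probe set over all arrays. PiZ was tested against wild-type by lmFit and eBayes of limma 3.58.1 (R 4.3.3), without covariates and two-sided. Adjusted p-values (Benjamini-Hochberg, all genes) were read at 0.05. They measure only the variation among 3 samples per group, and the number of arrays limits the precision. No detection calls were used. Python 3.11.15 and pandas 2.3.3 made the tables, and promoters came from RefSeq.

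The members and gene lists were chosen with earlier results of these data known. Named genes were the 14 members with the largest called differences, all immunoproteasome and PA28 genes, Psmb5 to Psmb7, and the highest and lowest member of each class, and up to 4 called genes per other list. The interferon list had 6 called genes and the partners list 5, all of which are given. Also named outside this rule were Psmc1, Psmd8 and Psmd12, and the uncalled list genes Pomp, Nfe2l2, Ngly1, Tap1, Irf1, Mpo and Elane. In simulated data with 12393 genes, 62% of genes raised by 1 on the log2 scale were called, 94% raised by 2 and 22% raised by 0.5. Of 128 calls there 4 were false, and 0 genes were called with nothing changed. The simulated arrays were independent and had the same spread in both groups. In the real data the PiZ spread was larger for 79.1% of genes, so the simulation does not give the error rates of these arrays. Alternatives changed the probe set rule, a filter on dim genes, scaling, variance model, array weights, threshold, the replicate number as a block and a 3′ to 5′ covariate, used PiZ replicate 1 alone, and left out each array in turn.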

Additional observations from a re-analysis of the deposited data

How the results depend on the processing

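Over 11 alternatives and the leaving out of each of the 6 arrays, the results read as follows. The cause of each move was not tested. The fit with the 3′ to 5′ covariate and that of PiZ replicate 1 alone gave similar differences, so they are not separate checks. The covariate was the mean of the 3′ minus 5′ differences of Gapdh and beta-actin. Genes called over all genes, 2921 in the comparison as given, were 914 at a threshold of 0.01 and 1814 with the covariate. They were 6520 with array weights and 1068 to 6175 when arrays were left out. Members that rose, 17 as given, were 8 at a threshold of 0.01 and 8 to 19 when arrays were left out. Members that fell, 3 as given, were 14 with array weights, 5 with the replicate block and 3 to 16 when arrays were left out, the 16 without PiZ replicate 1. The 3 falls called in the comparison as given were called in all 17 settings. The core and cap median, 0.48 as given, was 0.33 with the mean of all probe sets and 0.34 to 0.51 when arrays were left out. The immunoproteasome and PA28 median, -0.70 as given, was -0.57 with the covariate. Centring on 11 reference genes gave 15 rises and 4 falls among members, and no scaling moved the median of all genes by more than 0.076. Direction turned for 6 named members, none of which had passed. With the covariate and in PiZ replicate 1 alone, Psme1 read 0.027 and 0.014, Psmb7 0.31 and 0.25, Psma1 0.56 and 0.49, Psmd7 0.44 and 0.36, and Psme3ip1 0.20 and 0.17. The mean of all probe sets gave 0.11 for Psmd7 and -0.32 for Psme4, and array weights gave -0.019 for Psme4. Psme3ip1 read 0.017 with centring, 0.076 with cyclic loess and 0.093 with quantile normalization. Leaving out arrays gave -0.13 to 0.15 for Psme4 and -0.088 to 0.067 for Psme3ip1. Of 441 values for 26 named members, 374 kept direction and side of the threshold, 16 lost and 28 gained a call. Replicate numbers did not pair the arrays: deviations of same-numbered arrays correlated at 0.26, 0.29 and -0.03, so the replicate block (16 rises, 5 falls among members) is given only here.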
